A study of Homo sapiens with 6 samples.

Results

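CDK2, its cyclins E1 (CCNE1) and A2 (CCNA2), the phosphatase that activates it (CDC25A) and the CDK-directed phosphatase CDKN3 were taken by their symbols from a qPCR array of 84 cell cycle genes, and all 5 were measured in all 6 samples. The array was run on HMC-1.2 cells, a human neoplastic mast cell line whose labels give the KIT mutations D816V and V560G. Cells were cultured for 24 h with 50 µM SPHK2-I (ABC294640, an inhibitor of sphingosine kinase 2), with 5 µM SPHK1-I (SKI-178, an inhibitor of sphingosine kinase 1) or with 0.1% DMSO as vehicle, and each of these 3 groups has 2 samples. All groups are therefore cells of 1 line with mutant KIT, and the doses of the inhibitors differ, so that a difference between them is not one at a matched dose. Nothing in the sources used here says whether the duplicates were separate cultures, so p-values measure only the spread between these samples. The array holds no mast cell marker against which the label of the line could be checked.

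CDK2 is the kinase that carries cells from late G1 into and through S phase. It has no activity without a cyclin: cyclin E binds it at the G1/S transition and cyclin A during S phase and G2. Its activity is then set by phosphates. WEE1 places inhibitory phosphates on CDK2, CDC25A removes them, the CDK-activating kinase adds an activating phosphate in the activation loop, and CDKN3 (also called KAP) takes that phosphate away. CDC25A thus acts for the kinase and CDKN3 against it. What was measured here is the mRNA of these genes and not their protein or kinase activity.

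Promoter sequences are shown because 2 of these genes, CCNA2 and CDKN3, were lower under SPHK2-I than under SPHK1-I and CCNE1 was not, so that the DNA in front of them can be compared. Of the 5 genes, 4 matched an entry in the RefSeq promoter table (build GRCh38.p14), and the 250 bases before each start site are printed 5′ to 3′ on the gene's own strand. CCNE1 lies on the plus strand (chr19:29811741-29811990), CCNA2 on the minus strand (chr4:121823884-121824133), CDC25A on the minus strand (chr3:48188418-48188667) and CDKN3 on the plus strand (chr14:54396757-54397006). Capitals mark matches on either strand to 4 motifs of cell cycle promoters: TTTNNCGC (the E2F site), TTTGAA (the cell cycle homology region, CHR), CCAAT (the NF-Y box) and GGGCGG (the Sp1 box).
CCNE1: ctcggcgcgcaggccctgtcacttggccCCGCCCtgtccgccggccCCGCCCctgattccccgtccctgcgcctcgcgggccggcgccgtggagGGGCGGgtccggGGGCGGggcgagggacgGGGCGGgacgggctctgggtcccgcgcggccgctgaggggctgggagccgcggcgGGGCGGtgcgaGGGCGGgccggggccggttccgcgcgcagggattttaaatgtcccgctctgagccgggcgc
CCNA2: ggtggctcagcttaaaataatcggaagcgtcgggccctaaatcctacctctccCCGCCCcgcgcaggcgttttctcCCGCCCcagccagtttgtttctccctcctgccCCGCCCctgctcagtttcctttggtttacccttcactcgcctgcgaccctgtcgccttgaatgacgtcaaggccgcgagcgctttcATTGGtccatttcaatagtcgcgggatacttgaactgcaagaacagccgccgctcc
CDC25A: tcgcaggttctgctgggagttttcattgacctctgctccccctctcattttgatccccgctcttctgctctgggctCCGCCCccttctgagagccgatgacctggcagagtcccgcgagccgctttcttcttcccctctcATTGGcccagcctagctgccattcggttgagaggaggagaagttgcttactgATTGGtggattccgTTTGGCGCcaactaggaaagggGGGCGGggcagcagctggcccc
CDKN3: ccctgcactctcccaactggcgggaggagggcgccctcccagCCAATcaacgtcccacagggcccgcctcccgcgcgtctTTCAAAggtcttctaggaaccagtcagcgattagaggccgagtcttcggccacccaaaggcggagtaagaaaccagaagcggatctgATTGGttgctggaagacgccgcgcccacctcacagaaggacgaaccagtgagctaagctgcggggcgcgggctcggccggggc

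The CCNE1 stretch held 7 Sp1 boxes and no match to the letters of the other motifs. The CCNA2 stretch held 1 CCAAT box, 56 to 52 bases before the start, and 3 Sp1 boxes. The CDC25A stretch held the only E2F match, 44 to 37 bases before the start, with 2 CCAAT and 2 Sp1 boxes. The CDKN3 stretch held 2 CCAAT boxes and the only CHR match, 170 to 165 bases before the start, and no Sp1 box. No matches overlapped. Among all 35116 promoters of the table, 5.92% held the E2F letters, 13.3% the CHR letters, 32.0% a CCAAT box and 42.6% an Sp1 box in a stretch of this length. Only these exact letters were searched, so a stretch without a match may still hold a site that is spelled differently. A match of letters is a description and was not tested for binding.

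The array reads the threshold cycle, Ct, on a log2 scale, where less mRNA gives a higher number. Subtracting the average of B2M, GAPDH, HPRT1 and RPLP0 from it gives ΔCt, and the level used below is 2 to the power of −ΔCt. Changes are differences in mean −ΔCt on the log2 scale, tested with limma over all 84 genes in a model of the 3 groups, with Benjamini-Hochberg adjusted p-values and a threshold of 0.05. No exact permutation test between groups of 2 can reach a p below 0.333. SPHK1-I sample 2 amplified late, with a reference mean of 24.3 where the other samples had 22.1 to 22.7, and with 37 genes past a Ct of 30 where they had 9 to 13. Its reverse transcription control was at 24.44, where the other samples had 24.08 to 24.31, and its PCR control at 21.43, where they had 21.45 to 21.65. Across the 84 genes the SD of the log2 difference between duplicates was 0.13 for SPHK2-I, 0.48 for SPHK1-I and 0.17 for vehicle.

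CDK2 mRNA was lower with either inhibitor, by 1.76-fold with SPHK2-I and by 1.88-fold with SPHK1-I. Its level was 0.0200 and 0.0189 with SPHK2-I, 0.0201 and 0.0165 with SPHK1-I and 0.0343 and 0.0341 with vehicle. All 4 inhibitor samples lay below both vehicle samples, and the 2 inhibitors overlapped. The log2 change was −0.82 with SPHK2-I (standard error 0.17, adjusted p = 0.0106) and −0.91 with SPHK1-I (standard error 0.17, adjusted p = 0.00729). SPHK2-I minus SPHK1-I was 0.09, with a 95% confidence interval of −0.30 to 0.48 (adjusted p = 0.675).

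The cyclins of CDK2 were ordered differently by the inhibitors. CCNE1, the G1/S cyclin, had levels of 0.0165 and 0.0148 with SPHK2-I, 0.0117 and 0.0118 with SPHK1-I and 0.0215 and 0.0209 with vehicle, so that the 3 groups did not overlap and SPHK1-I was lowest. CCNE1 fell 1.80-fold with SPHK1-I (log2 change −0.85, standard error 0.15, adjusted p = 0.00729). With Ct limited to 30 the value was −0.48 (limma adjusted p = 0.233), and SPHK1-I sample 2, at a Ct of 30.73, was past that limit. Under SPHK2-I CCNE1 stood at −0.44 (standard error 0.15, 95% interval −0.80 to −0.08, adjusted p = 0.0662, not below the threshold). CCNA2, the S phase and G2 cyclin, had levels of 0.0675 and 0.0559 with SPHK2-I, 0.0964 and 0.0869 with SPHK1-I and 0.129 and 0.131 with vehicle. Here too the groups did not overlap, but SPHK2-I was lowest. CCNA2 fell 2.11-fold with SPHK2-I (log2 change −1.08, standard error 0.17, adjusted p = 0.00687). Its value with SPHK1-I was −0.50 (standard error 0.17, 95% interval −0.90 to −0.11, adjusted p = 0.050, not below the threshold). Tested directly, CCNA2 was lower under SPHK2-I than under SPHK1-I by 0.57 on the log2 scale (95% interval −0.97 to −0.18, adjusted p = 0.0404), a call that was lost in 14 of 21 alternatives with the sign kept in each. The same difference for CCNE1 was 0.41 (95% interval 0.05 to 0.76, adjusted p = 0.0920), which did not pass over the 84 genes. Over 8 other references it stayed above 0 and was called in 5 of 8, where CCNA2 was called in 4 of 8.

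The ratio of the cyclins within a sample needs no reference gene. CCNA2 over CCNE1 was 4.09 and 3.79 with SPHK2-I, 8.21 and 7.34 with SPHK1-I and 5.98 and 6.25 with vehicle. The SPHK2-I samples thus lay below and the SPHK1-I samples above the vehicle samples, without overlap. These ratios assume that both genes amplify with the same efficiency; an unequal efficiency would cancel only between samples of equal input, and SPHK1-I sample 2 came up later than the rest. They are given without a test.

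The phosphatases differed in how far they moved. CDC25A, which removes the inhibitory phosphates, had levels of 0.00619 and 0.00565 with SPHK2-I, 0.00954 and 0.00407 with SPHK1-I and 0.0141 and 0.0152 with vehicle. All 4 inhibitor samples were below vehicle, but the SPHK1-I duplicates lay on either side of those of SPHK2-I and differed from each other by 1.23 on the log2 scale. CDC25A fell 2.48-fold with SPHK2-I (log2 change −1.31, standard error 0.36, adjusted p = 0.0317) and 2.36-fold with SPHK1-I (−1.24, standard error 0.36, adjusted p = 0.0311). Of the 84 log2 changes its value was the lowest with SPHK1-I and the third from the lowest with SPHK2-I. With SPHK1-I the change was −0.62 without sample 2 and −1.85 without sample 1, so its size rests on which duplicate is used. Its Ct was above 30 in 3 samples, namely both of SPHK2-I (30.02 and 30.14) and SPHK1-I sample 2 (32.27). With Ct limited to 30 the changes were −1.23 with SPHK2-I (adjusted p = 0.0767) and −0.10 with SPHK1-I (adjusted p = 0.855). The limit itself took away part of the fall with SPHK2-I. In SPHK1-I sample 2, which amplified late, it placed CDC25A above its vehicle level, so the −0.10 does not measure the change. SPHK2-I minus SPHK1-I was −0.08, with a wide interval of −0.91 to 0.76 (adjusted p = 0.901).

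CDKN3, which removes the activating phosphate from CDK2, was the 1 gene of the 5 that lay near its vehicle level under an inhibitor with the deposited reference. Its level was 0.0405 and 0.0346 with SPHK2-I, 0.0647 and 0.0655 with SPHK1-I and 0.0659 and 0.0686 with vehicle. The SPHK2-I samples were far below the rest, and the SPHK1-I samples lay just under the vehicle samples. CDKN3 fell 1.79-fold with SPHK2-I (log2 change −0.84, standard error 0.16, adjusted p = 0.0103). With SPHK1-I its value was −0.05 (95% interval −0.42 to 0.33, adjusted p = 0.810), an interval that leaves room for a change of either sign. The inhibitors differed by −0.80 (SPHK2-I minus SPHK1-I, standard error 0.16, 95% interval −1.17 to −0.42, adjusted p = 0.0127), a 1.74-fold lower level with SPHK2-I. This call was lost in 10 of 21 alternatives with the sign kept in each.

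**Figure D1:**
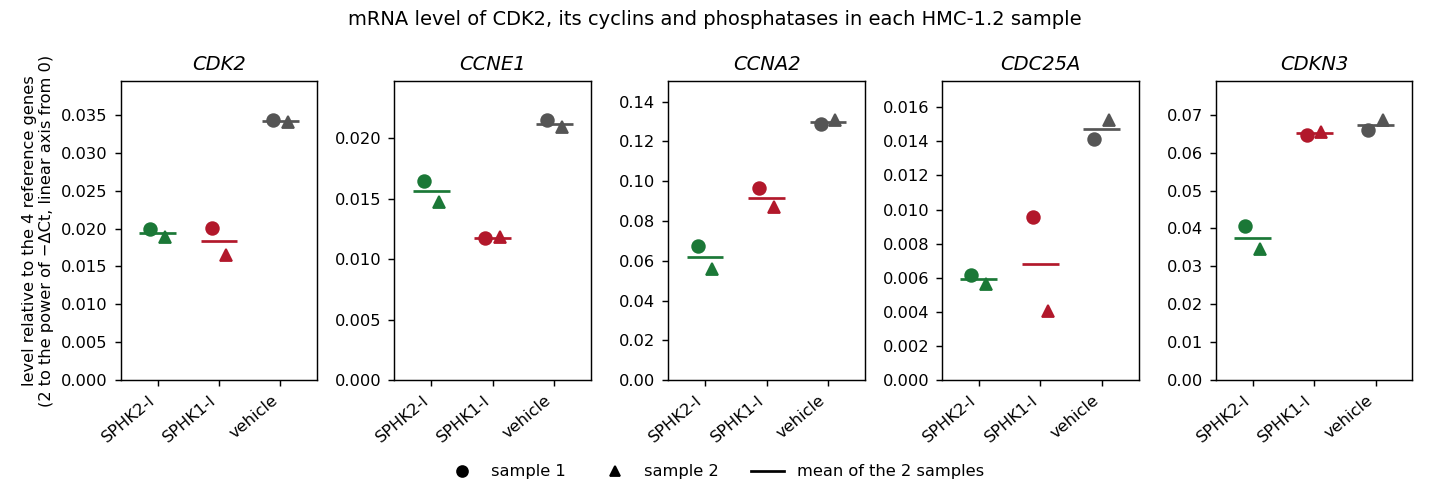
Level of each of the 5 genes (2 to the power of −ΔCt, linear axes from 0) in every sample of SPHK2-I, SPHK1-I and vehicle; circles are sample 1, triangles sample 2 and lines the mean of the 2. The points of CDK2, CCNE1, CCNA2 and CDC25A with either inhibitor lie below both vehicle points, though CCNE1 with SPHK2-I and CCNA2 with SPHK1-I did not pass the test, while CDKN3 with SPHK1-I, at 0.0647 and 0.0655, lies beside vehicle at 0.0659 and 0.0686.

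Counted together, 4 of the 5 genes were called lower with SPHK2-I (all but CCNE1), against 23.8% of the 84 genes that were called lower in that comparison. With SPHK1-I, 3 of the 5 were called lower (CDK2, CCNE1 and CDC25A), against 31.0% of all genes. Both samples of the inhibitor were below both vehicle samples for 5 of 5 genes with SPHK2-I, where 60.7% of all genes were, and for 5 of 5 with SPHK1-I, where 57.1% were, so that much of the array lay lower by this count. The 5 with SPHK1-I include CDKN3, at 0.0647 and 0.0655 against 0.0659 and 0.0686 with vehicle. Its change there was below 0 with only 2 of 8 other references. The median log2 change of the 5 genes was −0.84 with SPHK2-I and −0.85 with SPHK1-I, beside −0.25 for all genes with SPHK2-I and −0.35 with SPHK1-I. In the direct comparison 2 of the 5, CCNA2 and CDKN3, were called lower with SPHK2-I, against 15.5% of all genes. These were also the 2 genes whose SPHK2-I samples were both below those of SPHK1-I (23.8% of all genes), and CCNE1 was the 1 whose SPHK2-I samples were both above (34.5% of all genes). The inhibitor comparisons share the vehicle samples, and their values are therefore set side by side only.

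**Figure D2:**
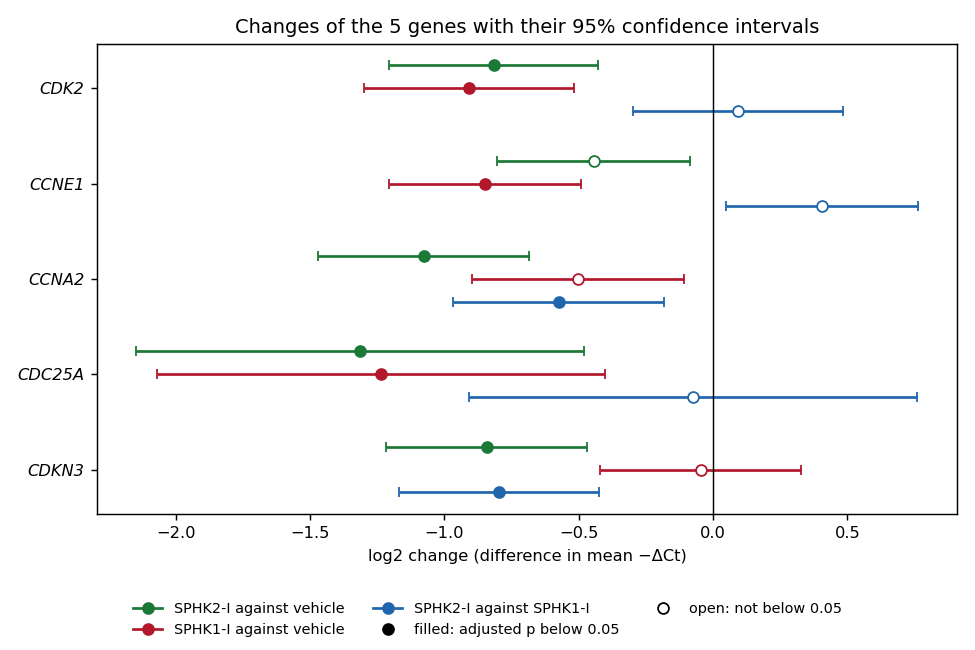
Log2 change (difference in mean −ΔCt) of each gene with its 95% confidence interval from limma, for SPHK2-I against vehicle, SPHK1-I against vehicle and SPHK2-I against SPHK1-I; filled points have an adjusted p below 0.05. The intervals of CCNA2 and CDKN3 lie below 0 in the direct comparison, and that of CDC25A is the widest in each comparison.

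With 2 samples a group, these calls depended on single samples. Without vehicle sample 1 or 2, or without SPHK2-I sample 1 or 2, 0 of the 5 genes passed with SPHK2-I in limma (3 or 4 at an unadjusted p under 0.05), and over these settings CDK2 was at −0.86 to −0.77, CCNA2 at −1.21 to −0.94 and CDKN3 at −0.96 to −0.73. With SPHK1-I, 0 of the 5 passed without vehicle sample 1 or 2 (2 at an unadjusted p under 0.05), with CDK2 at −0.90 and −0.91 and CCNE1 at −0.83 and −0.87, and 2 of 5 passed without SPHK2-I sample 1 or 2, when CDC25A was lost (adjusted p = 0.0830). In the direct comparison 0 of the 5 passed without either vehicle or either SPHK2-I sample (1 or 2 at an unadjusted p under 0.05), with CDKN3 at −0.91 to −0.68 and CCNA2 at −0.71 to −0.44. Without SPHK1-I sample 1 or 2 the group with the widest spread was down to 1 sample, which the fit takes to vary like the other groups, and more genes passed: 5 of 5 with SPHK2-I, 4 of 5 with SPHK1-I and 4 of 5 in the direct comparison, where CDC25A was at 0.54 without sample 1 and at −0.69 without sample 2.

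Which housekeeping genes were used as reference shifted all changes of a comparison by the same amount. Against the mean of the 4 reference genes, SPHK2-I gave log2 changes of −0.55 for ACTB, −0.52 for HPRT1, −0.15 for GAPDH, 0.25 for RPLP0 and 0.42 for B2M. With SPHK1-I they were −0.29 for ACTB, −0.35 for HPRT1, −0.29 for GAPDH, 0.04 for RPLP0 and 0.61 for B2M. A change taken against 1 of these genes alone is shifted by that much in the other direction. Over 8 other references, CDK2, CCNA2 and CDC25A stayed below 0 in 8 of 8 with either inhibitor. CDK2 ranged between −1.24 and −0.27 with SPHK2-I (called in 6 of 8) and between −1.52 and −0.56 with SPHK1-I (6 of 8). CCNA2 ranged between −1.5 and −0.53 with SPHK2-I (called in 7 of 8) and between −1.11 and −0.15 with SPHK1-I (2 of 8). CDC25A ranged between −1.73 and −0.76 with SPHK2-I (called in 4 of 8) and between −1.84 and −0.89 with SPHK1-I (3 of 8). CCNE1 was below 0 in 8 of 8 with SPHK1-I (called in 4 of 8). With SPHK2-I it was below 0 in 6 of 8 (called in 1 of 8), at 0.11 with ACTB and 0.07 with HPRT1 alone. CDKN3 was below 0 in 8 of 8 with SPHK2-I (−1.26 to −0.29, called in 6 of 8). With SPHK1-I it was below 0 in only 2 of 8 (B2M alone and RPLP0 alone), with a range of −0.65 to 0.30 (called in 1 of 8). The difference between the inhibitors was below 0 in 8 of 8 for CDKN3 (−1.01 to −0.54, called in 6 of 8) and for CCNA2 (−0.79 to −0.32, called in 4 of 8). For CCNE1 it was above 0 in 8 of 8 (0.19 to 0.66, called in 5 of 8).

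**Figure D3:**
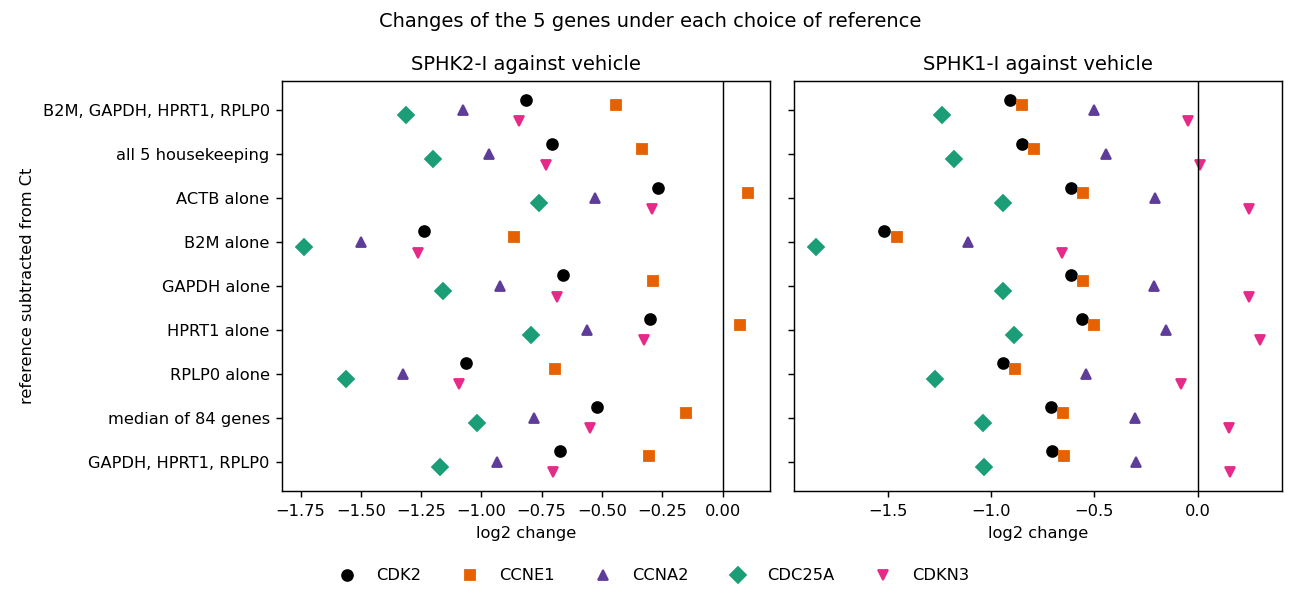
Log2 change of the 5 genes against vehicle, with SPHK2-I on the left and SPHK1-I on the right, under the deposited reference (top row) and 8 other references. The order of the genes is the same in every row of a panel because a reference shifts all genes alike; with SPHK1-I the CDKN3 points lie on both sides of 0, between −0.65 and 0.30.

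Taking CDK2 itself as the yardstick removes the reference genes altogether, and shows which partners kept step with the kinase. In this fit the other 83 genes were tested relative to CDK2 in the same sample. With SPHK2-I, CDKN3 over CDK2 was 2.03 and 1.84, against 1.92 and 2.01 with vehicle, a log2 change of −0.03 (95% interval −0.37 to 0.32, adjusted p = 0.876). With SPHK1-I the ratio was 3.22 and 3.97, against the same 1.92 and 2.01, so both samples were above vehicle. Relative to CDK2, CDKN3 rose with SPHK1-I by 0.86 (95% interval 0.52 to 1.21, adjusted p = 0.00450), and this call was kept under all 10 alternatives, with values of 0.71 to 1.01. These 10 did not include the methods' t-test, which was not run on the ratios. Between the inhibitors the ratio of CDKN3 over CDK2 differed by −0.89 (SPHK2-I minus SPHK1-I, adjusted p = 0.00652). It was −0.96 and −0.82 without SPHK2-I sample 1 or 2 (adjusted p = 0.0576 and 0.0814).

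CCNA2 over CDK2 was 3.37 and 2.97 with SPHK2-I, 4.79 and 5.26 with SPHK1-I and 3.75 and 3.84 with vehicle. Cyclin A2 was thus higher relative to its kinase with SPHK1-I, by a log2 difference of 0.41 (95% interval 0.11 to 0.70, adjusted p = 0.0295). Its value with SPHK2-I was −0.26 (95% interval −0.55 to 0.03, adjusted p = 0.101), and between the inhibitors it was −0.67 (95% interval −0.96 to −0.37, adjusted p = 0.00955). The SPHK1-I call was lost without vehicle sample 1 or 2 (0.39 and 0.42, adjusted p = 0.151 and 0.114), without either SPHK2-I sample (0.41, adjusted p = 0.0661) and with Ct limited to 30 (0.28, adjusted p = 0.109), and the call between the inhibitors without SPHK2-I sample 1 or 2 (−0.76 and −0.57, adjusted p = 0.0576 and 0.104). CCNE1 over CDK2 was 0.824 and 0.783 with SPHK2-I, 0.584 and 0.716 with SPHK1-I and 0.627 and 0.614 with vehicle. Relative to CDK2 it was 0.37 higher with SPHK2-I (95% interval 0.05 to 0.70, adjusted p = 0.0494), a call that was lost in 7 of 10 alternatives, among them each that left out a vehicle or an SPHK2-I sample. With SPHK1-I the value was 0.06 (95% interval −0.27 to 0.39, adjusted p = 0.733). CDC25A over CDK2 was 0.310 and 0.300 with SPHK2-I, 0.475 and 0.247 with SPHK1-I and 0.412 and 0.447 with vehicle, with log2 changes of −0.50 with SPHK2-I (adjusted p = 0.177) and −0.33 with SPHK1-I (adjusted p = 0.373).

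CDK2 fell more than most of the array, so these ratios have to be read against the whole. Relative to CDK2, 61.4% of the 83 genes were called higher with SPHK2-I and 56.6% with SPHK1-I, each with a median of 0.57. The 1 of 4 partners called higher with SPHK2-I (CCNE1) and the 2 of 4 with SPHK1-I (CCNA2 and CDKN3) lay near or below that share. In the direct comparison, which the fall of CDK2 hardly touches, 18.1% of genes were called lower with SPHK2-I, with a median of 0.04, and 2 of the 4 partners (CCNA2 and CDKN3) were among them.

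**Figure D4:**
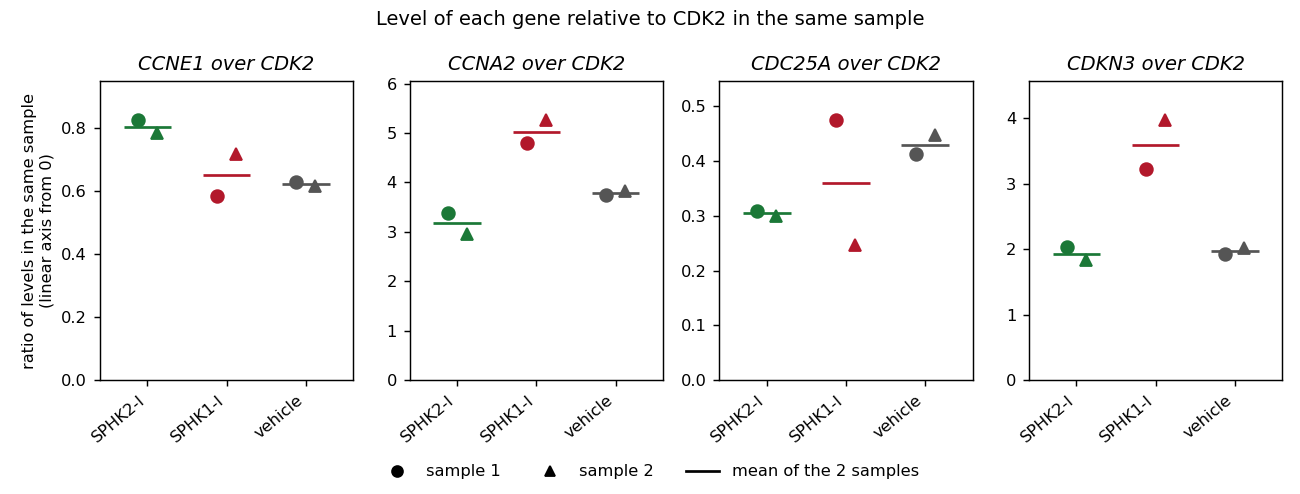
Level of each partner divided by that of CDK2 in the same sample (linear axes from 0), in SPHK2-I, SPHK1-I and vehicle; circles are sample 1, triangles sample 2 and lines the mean of the 2. CDKN3 over CDK2 is 3.22 and 3.97 with SPHK1-I, against 1.92 and 2.01 with vehicle, and the SPHK2-I samples at 2.03 and 1.84 lie beside vehicle.

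Each of the 5 genes was also set beside the other 83 by the root mean square of the log2 difference between their profiles over the 6 samples, each profile centred on its vehicle mean. This is a description and carries no test. The reference cancels in these differences, and SPHK1-I sample 2, which amplified late, is among the 6 samples. CDK2 was most like CHEK2, a checkpoint kinase (0.116), and KPNA2, a nuclear import receptor (0.131), beside a median of 0.537 over the 83 genes. CCNE1 was most like CKS1B, a CDK-binding subunit (0.105), and STMN1, a microtubule regulator (0.108), and CCNA2 was most like BCCIP (0.147) and the proliferation marker MKI67 (0.151). CDC25A was nearest to CDK1, the mitotic kinase (0.192), and CCNF, cyclin F (0.271), and CDKN3 to MAD2L1, a spindle checkpoint gene (0.130), and CCNB2, cyclin B2 (0.132). Among the 5 themselves CDK2 and CCNE1 were the nearest pair (0.235), and CDC25A and CDKN3 the farthest (0.822). CCNE1 was only at rank 11 of the 83 genes by nearness to CDK2. CDC25A was far from most genes, with a median of 0.880 over the 83, and CDKN3 lay nearer to it than that. CDKN3 over CDC25A was 6.55 and 6.13 with SPHK2-I, 6.78 and 16.1 with SPHK1-I and 4.66 and 4.50 with vehicle, above vehicle in all 4 inhibitor samples. By its mean change CDC25A fell further than nearly all genes with either inhibitor, so the mean of such a ratio rises for most genes and is not particular to CDKN3. With SPHK1-I that mean change rests on sample 2, at −1.85. In sample 1 CDC25A was at −0.62, with CDK2 at −0.77, CCNE1 at −0.85, CCNA2 at −0.43 and CDKN3 at −0.06. The 16.1 is SPHK1-I sample 2, where the Ct of CDC25A was 32.27.

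Of the kinases that phosphorylate CDK2, namely CDK7 with its partners CCNH and MNAT1 and the inhibitory kinase WEE1, 0 of 4 passed in limma in any of the comparisons (0 also at an unadjusted p under 0.05). Over the whole array 24 of 84 genes passed with SPHK2-I, 30 with SPHK1-I and 26 between the inhibitors. The log2 changes of the 4 had medians of −0.09 with SPHK2-I, −0.08 with SPHK1-I and −0.14 between the inhibitors, beside all-gene medians of −0.25 with SPHK2-I, −0.35 with SPHK1-I and 0.13 between the inhibitors. CDK7 had levels of 0.0237 and 0.0241 with SPHK2-I, 0.0285 and 0.0263 with SPHK1-I and 0.0262 and 0.0261 with vehicle. WEE1 had 0.0408 and 0.0367 with SPHK2-I, 0.0413 and 0.0291 with SPHK1-I and 0.0395 and 0.0412 with vehicle, overlapping throughout.

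Of the 5 genes of the CDK2 inhibitors p21 and p27 and of p27 turnover, 1 fell with SPHK2-I, and 2 fell and 1 rose with SPHK1-I, where 23.8% of all genes were called lower with SPHK2-I and 31.0% with SPHK1-I. The median was −0.11 with SPHK2-I and −0.18 with SPHK1-I, beside −0.25 with SPHK2-I and −0.35 with SPHK1-I for all genes. SKP2, which marks p27 for degradation, fell with both, by 1.13 on the log2 scale with SPHK2-I (standard error 0.18, adjusted p = 0.00687) and by 0.98 with SPHK1-I (standard error 0.18, adjusted p = 0.00729). CKS1B, its cofactor, fell with SPHK1-I (−0.85, adjusted p = 0.0114), its SPHK2-I value being −0.45 (adjusted p = 0.0845). CDKN1A, which encodes p21, had levels of 0.0968 and 0.0927 with SPHK2-I, 0.169 and 0.255 with SPHK1-I and 0.0916 and 0.0872 with vehicle. It rose 2.33-fold with SPHK1-I (adjusted p = 0.00729). Set against each other, the inhibitors gave a 2.19-fold lower level under SPHK2-I (adjusted p = 0.0113). CDKN1B, which encodes p27, had values of 0.04 with SPHK2-I and 0.28 with SPHK1-I, which did not pass. CUL1, the scaffold of the ligase that SKP2 belongs to, had values of −0.11 with SPHK2-I and −0.18 with SPHK1-I, which did not pass either.

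Of the checkpoint kinases, which mark CDC25A for degradation, CHEK2 fell by 0.70 with SPHK2-I (adjusted p = 0.0369) and by 0.85 with SPHK1-I (adjusted p = 0.0166), and CHEK1 fell by 0.84 with SPHK1-I (adjusted p = 0.0352), its SPHK2-I value being −0.64 (adjusted p = 0.0917). That is 1 of 2 with SPHK2-I, against 23.8% of all genes called lower, and 2 of 2 with SPHK1-I, against 31.0%, and neither gene passed between the inhibitors. CHEK1 had levels of 0.0164 and 0.0096 in SPHK1-I samples 1 and 2, against 0.0218 and 0.0231 with vehicle. CHEK2 had 0.0091 and 0.0063, against 0.0130 and 0.0144. In SPHK1-I sample 2, which amplified late, their Ct was 31.03 for CHEK1 and 31.63 for CHEK2. Of the 9 other cyclins, their kinases and CDC25C, 3 fell and 1 rose with SPHK2-I, and 4 fell and 1 rose with SPHK1-I. Over the whole array 23.8% of genes were called lower with SPHK2-I and 31.0% with SPHK1-I. Called higher were 4 of 84 genes with SPHK2-I and 4 of 84 with SPHK1-I. The median of the 9 was −0.21 with SPHK2-I and −0.55 with SPHK1-I, beside −0.25 with SPHK2-I and −0.35 with SPHK1-I for all genes. Those called lower were CCNB1, CCNB2 and CDK1 with SPHK2-I and CDK1, CDK4, CDC25C and CCND3 with SPHK1-I. Between the inhibitors CCNB1, CCNB2 and CDK6 were lower and CDK4 and CCND3 higher under SPHK2-I. In that comparison 15.5% of all genes were called lower, and 26 of 84 were called in either direction. The kinase CDK1, which cyclin A2 also binds, fell 2.19-fold with SPHK2-I (adjusted p = 0.0116) and 2.14-fold with SPHK1-I (adjusted p = 0.0153). Its levels were 0.112 and 0.0666 in SPHK1-I samples 1 and 2, against 0.176 and 0.194 with vehicle. The mitotic cyclins CCNB1 and CCNB2 fell 3.11-fold and 1.72-fold with SPHK2-I (adjusted p = 0.00687 and 0.0106), and both were also lower under SPHK2-I than under SPHK1-I, with log2 differences of −1.09 and −0.53 (adjusted p = 0.0170 and 0.0404). CDK4 fell with SPHK1-I by 1.78-fold (adjusted p = 0.00729). CDK6 rose with both, by 0.80 with SPHK2-I (adjusted p = 0.0116) and 1.90 with SPHK1-I (adjusted p = 0.000745), and its Ct, like that of CDC25C, was above 30 in all 6 samples. Without vehicle sample 1 or 2 the number of genes called over the whole array was 0 with SPHK2-I (19 or 20 at an unadjusted p under 0.05) and 0 with SPHK1-I (22 or 25), and without SPHK2-I sample 1 or 2 it was 0 with SPHK2-I (19 or 20), so that the calls of these pathway genes against vehicle rest on the duplicates as well.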

How the data were processed

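RT2 Profiler PCR arrays measured 84 cell cycle genes in 6 HMC-1.2 samples, 2 each with SPHK2-I, SPHK1-I and vehicle. The deposited Ct table, averaged by the authors with the maker's web tool, is on a log2 scale, as is the authors' ΔCt table, which subtracts the mean of B2M, GAPDH, HPRT1 and RPLP0 (found from their ΔCt values, which sum to about 0 in each sample). No Ct is above 35. The tables of relative levels, fold changes and fold regulation hold the authors' own comparisons and were not used. RNA came from 3000000 cells by the paper's methods and from 1000000 by the labels.

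−ΔCt was fitted with limma 3.58.1 in R 4.3.3 (3 groups, 3 residual and 4.33 prior degrees of freedom, no replicate block), and the code was tested on simulated data. The number of samples limits the precision. The fit relative to CDK2 subtracted the value of CDK2 in the same sample, over the other 83 genes. The 5 genes, the pathway lists and the tests were chosen with earlier results of these data known. Named genes are the 5, up to 3 called genes of each list with the smallest p per comparison, the 2 most similar genes of each of the 5, and the housekeeping genes; further list members are named to complete the lists. Some genes and 1 list are not reported here. Alternatives, 20 planned and 1 added after seeing the data (B2M left out of the reference), each changed 1 choice, except the methods' t-test on the linear level, which changes test and scale: other references, Ct limited to 30, each sample left out, a replicate block, only the groups compared, trend and robust settings, and the methods' t-test. The fit relative to CDK2 had 10 of these alternatives, without the other references and the methods' t-test. Protein sequences were not used here.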

Additional observations from a re-analysis of the deposited data

How the results depend on the processing

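The number of the 5 genes called with SPHK2-I (4) was 1 with ACTB alone or HPRT1 alone as reference, 0 with the methods' t-test on ΔCt (5 at an unadjusted p under 0.05), and between 0 and 5 when samples were left out. With SPHK1-I (3) it was 5 with B2M alone, 1 with HPRT1 alone or Ct limited to 30, 0 with GAPDH alone or RPLP0 alone and with the t-test of the methods on both scales (3 unadjusted in each), with 0 to 4 when samples were left out. Between the inhibitors (2) it was 1 with ACTB alone, and that 1, CCNE1, was higher with SPHK2-I; it was 0 with RPLP0 alone, with Ct limited to 30, with only the 2 groups compared and with the t-test of the methods on both scales (2, 3, 2 and 2 unadjusted), with 0 to 4 when samples were left out.

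Over the whole array the count with SPHK2-I (24) was 57 with B2M alone, 55 with only the 2 groups compared, 29 with ACTB alone (7 lower and 22 higher), 34 with HPRT1 alone (9 lower and 25 higher), 1 with the methods' t-test on ΔCt (higher), 41 with that test on the linear level unadjusted (17 adjusted), and 0 to 55 with samples left out. With SPHK1-I (30) it was 70 with B2M alone, 8 with GAPDH alone, 14 with HPRT1 alone or Ct limited to 30, 1 with RPLP0 alone (higher), 15 with the median gene as reference, 13 with only the 2 groups compared or without B2M in the reference, 0 with the methods' t-test on ΔCt and on the linear level (21 and 22 unadjusted), and 0 to 64 with samples left out. Between the inhibitors (26) it was 40 with ACTB alone, 3 with RPLP0 alone, 0 with Ct limited to 30, with only the 2 groups compared and with either t-test (25, 27, 17 and 18 unadjusted), and 0 to 61 with samples left out.

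The sign of CDKN3 with SPHK1-I (−0.05) turned to 0.013 with all 5 housekeeping genes, 0.25 with ACTB or GAPDH alone, 0.30 with HPRT1 alone, 0.15 with the median gene and 0.16 without B2M, and that of CCNE1 with SPHK2-I to 0.11 with ACTB and 0.073 with HPRT1 alone. Between the inhibitors CDC25A turned to 0.18 with ACTB, 0.11 with B2M and 0.090 with HPRT1 alone and 0.020 with the median gene, with −0.69 to 0.54 when samples were left out. CDK2 turned to −0.047 with GAPDH alone, −0.12 with RPLP0 alone and −0.032 with Ct limited to 30, with −0.050 to 0.23 when samples were left out. Relative to CDK2, CDC25A with SPHK1-I was 0.68 with Ct limited to 30 and −0.80 to 0.14 with samples left out, and between the inhibitors −0.64 to 0.30. CCNE1 with SPHK1-I was −0.088 to 0.21 and CDKN3 with SPHK2-I −0.098 to 0.045 with samples left out. A single reference gene shifts every gene by its own change, and the Ct limit raises the level of any gene past it. In SPHK1-I sample 2 both CDK2 and CDC25A were past the limit, which set them equal. The causes of the other shifts were not tested.

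Deviations of same-numbered samples from their group means correlated at −0.26 between SPHK1-I and vehicle, −0.11 between SPHK2-I and vehicle and −0.04 between the inhibitors. The samples were treated as unpaired, though with 1 duplicate difference per group these values cannot show whether same-numbered samples were pairs. With the replicate block the count between the inhibitors was 1 of the 5 genes and 14 of all (CCNA2 adjusted p = 0.0629), and relative to CDK2 the calls of CCNA2 with SPHK1-I (adjusted p = 0.0642) and CCNE1 with SPHK2-I (adjusted p = 0.0920) were lost; it changed no other call of the 5 genes.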
